A study of Homo sapiens with 12 samples.

Results

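The genes followed here are the transcription factor gene NFE2L2, which encodes NRF2, its repressor gene KEAP1 and 7 antioxidant genes that NRF2 is known to drive: SLC7A11, GCLC and GCLM of glutathione supply, TXNRD1 and SRXN1 of the thioredoxin and peroxiredoxin system, the quinone reductase gene NQO1 and the catalase gene CAT. They were taken by symbol, 9 genes of the 20036 in the deposited table, and each symbol matched 1 Ensembl identifier. These genes and the gene lists below were chosen with earlier results of these data known. Counts set beside the share of all genes are therefore descriptions and not independent tests. RNA sequencing was done on MV-4-11, an established human myelomonocytic acute myeloid leukemia line labelled wild type, after 48 h of treatment. The 12 libraries were 3 with eliglustat and venetoclax together (Comb), 3 with eliglustat (ELI), 3 with venetoclax, also called ABT-199 (ABT), and 3 with the vehicle DMSO. Eliglustat inhibits glucosylceramide synthase, the product of UGCG, and venetoclax inhibits the survival protein BCL2. The sources used here give no doses. Nothing in the labels says that libraries of 1 group were grown as separate cultures, and the p-values therefore cover the spread among these libraries only, which may be technical.

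NRF2 binds antioxidant response elements near its target genes together with a small MAF protein. KEAP1 holds NRF2 in the cytoplasm and hands it to a ubiquitin ligase, and oxidants or electrophiles that modify KEAP1 let newly made NRF2 reach the nucleus. NRF2 is therefore regulated largely at the protein level, and a transcript level of NFE2L2 or KEAP1 is not a measure of NRF2 activity.

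The core of the element, TGACNNNGC on either strand, was searched in the RefSeq promoter windows (GRCh38.p14, 250 bases before to 50 after a gene start), since it is the site through which NRF2 acts on its targets. Of the 9 genes 8 had at least 1 window, and 3 of these 8 had a match (GCLM, TXNRD1 and KEAP1), against 16.1% of all 27305 genes with a window. Matches are shown with 10 bases on either side and the core in capitals, 5′ to 3′ on the strand of the gene.
GCLM, minus strand, chr1:93909446-93909474: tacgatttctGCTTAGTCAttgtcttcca
TXNRD1, plus strand, chr12:104215670-104215698: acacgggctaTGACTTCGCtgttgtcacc
TXNRD1, second start, chr12:104286920-104286948: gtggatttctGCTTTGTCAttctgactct
KEAP1, minus strand, chr19:10502784-10502812: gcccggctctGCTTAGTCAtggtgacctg
KEAP1, the same window, chr19:10502807-10502835: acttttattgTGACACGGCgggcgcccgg
The GCLM and the first KEAP1 match hold the same core letters. A further match lay 8 bases before the first TXNRD1 start. A match describes these letters and says nothing of binding, and elements outside the windows were not searched.

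Values are FPKM, fragments scaled by the length of the gene model and by library size, and differences are on the log2(FPKM + 1) scale, which understates the change of low genes. A filter of 1 FPKM in 3 or more libraries left 9959 genes, which were tested together with limma, with Benjamini-Hochberg adjustment over all of them and a threshold of 0.05. Among the 9 genes 8 passed this filter. SLC7A11 passed it only through the Comb and ELI libraries and 1 DMSO library, so that a difference was a condition of its being tested, and SRXN1 did not pass. Reads read back from the FPKM steps totalled 17259889 to 21082288 per library, and the 8 tested genes had 102 to 7303 reads in a library. In ELI, ABT and DMSO the library numbered 1 stood apart from libraries 2 and 3 by recovered reads, as given below. Gene by gene, its distance to its own group tracked GC content across 9936 genes. Spearman's rho was -0.70 in ELI, -0.70 in ABT and -0.79 in DMSO. Libraries 2 and 3 of these groups had values of the opposite sign, 0.19 to 0.81, the largest in DMSO replicate 2. Distances were taken from the mean of the 3 libraries, so opposite signs follow from the calculation. They do not show which library is the odd one. Differences between groups also followed GC content, with rho of -0.48 in ELI against DMSO, 0.66 in ABT against DMSO and -0.38 in Comb against DMSO. It was -0.54 in Comb against ABT and -0.62 in ELI against ABT, but -0.06 in Comb against ELI. For the interaction defined below it was -0.50. By recovered reads, chi-square per degree of freedom was 7.83 to 69.96 for pairs with library 1 and 4.86 to 11.28 for libraries 2 and 3, compared within each group. Results are therefore also given, where they change, without the 4 libraries numbered 1 or after the dependence on GC content and gene length was taken out of each library (called removal of the GC and length trend below). Of 10 markers of a myelomonocytic line 8 averaged at least 1 FPKM, with a summed level of 608 to 616 FPKM in Comb, 569 to 594 in ELI, 492 to 539 in ABT and 530 to 587 in DMSO; the part of this shift in the results below was not tested. HBB, HBA1, CD2, COL1A2 and KRT19, markers of other cell types, were at 0 in all libraries.

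In Comb against DMSO 7 of the 8 tested genes rose and KEAP1 fell, where limma called 51.5% of all tested genes in either direction, 25.7% higher and 25.8% lower. In bulk RNA, a change in the share of cells and a change in RNA per cell cannot be told apart. The median difference of the 8 from DMSO was 0.75, against 0.02 over all tested genes. For all 8 the Comb and DMSO libraries did not overlap, as for 55.7% of tested genes. The ratio of mean FPKM, Comb over DMSO, ranged from 4.43 for SLC7A11 and 2.24 for NQO1 down to 1.20 for CAT and 0.819 for KEAP1.

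**Figure D1:**
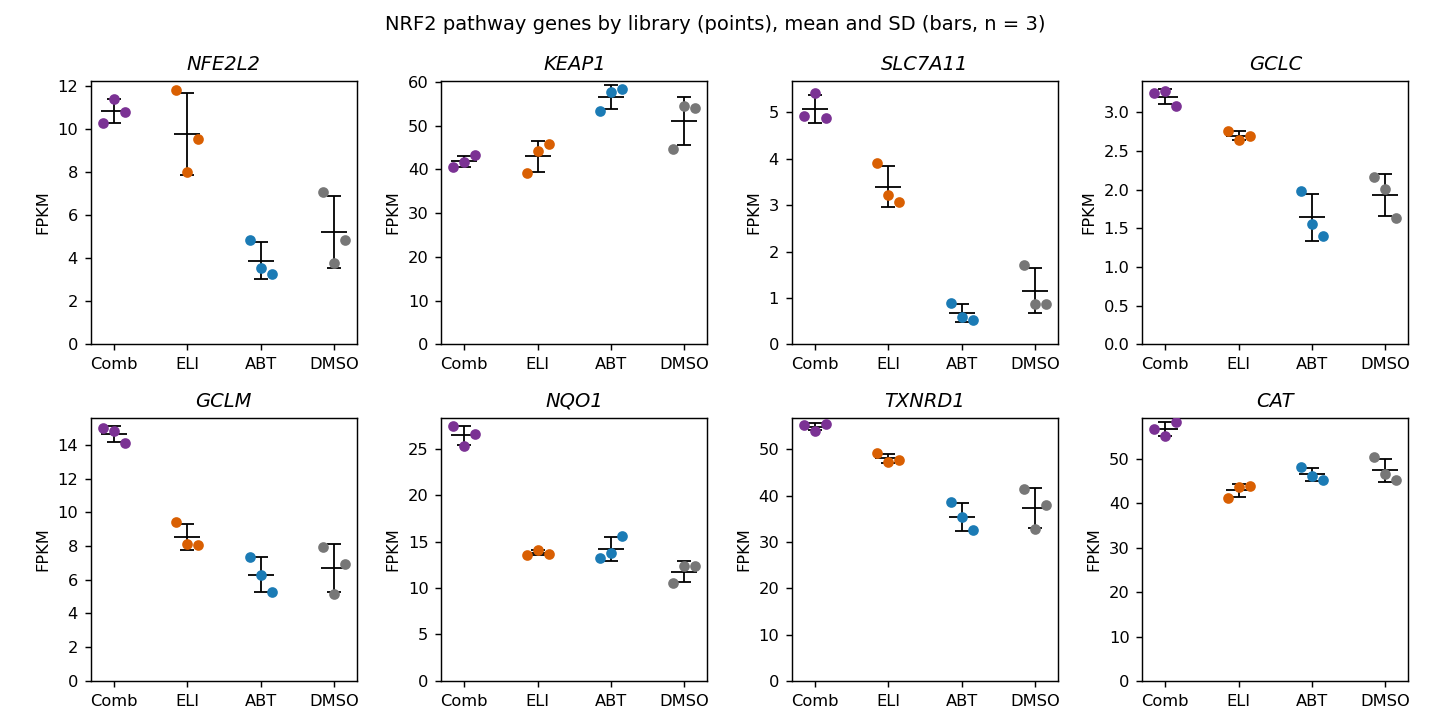
FPKM of the 8 tested genes in each of 12 libraries (points, replicates 1 to 3 from left to right), with the group mean and SD (n = 3). SLC7A11, GCLC, GCLM, NQO1, TXNRD1 and CAT are each highest in Comb with no overlap with any other group. KEAP1 is lower in Comb and ELI than in ABT.

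NFE2L2 (ENSG00000116044) lies on chromosome 2, minus strand, 177227595 to 177392697 (GRCh38, GENCODE 29, as for all positions of genes below). It had 10.3, 11.4 and 10.8 FPKM in Comb, 11.8, 8.01 and 9.53 in ELI, 4.85, 3.53 and 3.25 in ABT and 7.07, 3.76 and 4.83 in DMSO. The groups with eliglustat were high and the groups without it low, with no overlap between them. NFE2L2 rose by 0.96 in Comb against DMSO (SE 0.18, limma adjusted p = 0.0012) and by 0.81 in ELI against DMSO (SE 0.18, limma adjusted p = 0.0058). Comb and ELI overlapped, and their difference of 0.15 (SE 0.18) did not pass (limma adjusted p = 0.73). In ABT against DMSO it differed by -0.33 (SE 0.18, limma adjusted p = 0.29). The gene model behind the FPKM values is 14975 bases long against 5979 bases of exons in GENCODE 29, so the level of NFE2L2 is not set beside that of other genes.

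KEAP1 (ENSG00000079999) (chromosome 19, minus strand, 10486120 to 10503741) encodes the adaptor that brings NRF2 to the CUL3 ubiquitin ligase. It ran opposite to NFE2L2, with 40.6, 41.7 and 43.2 FPKM in Comb, 39.1, 44.2 and 45.8 in ELI, 53.5, 57.8 and 58.4 in ABT and 44.7, 54.6 and 54.0 in DMSO. DMSO replicate 1 was the low DMSO library and fell among the ELI values, while Comb lay under all 3. Against DMSO, KEAP1 was lower in Comb by a log2 difference of -0.28 (SE 0.09, limma adjusted p = 0.019), and against ABT by -0.43 (SE 0.09, limma adjusted p = 0.0011). The Comb call against DMSO was lost without Comb replicate 1 or 2 or DMSO replicate 2 or 3, with limma adjusted p up to 0.076 when 1 library was left out. In ELI against DMSO the difference of -0.24 (SE 0.09) just passed (limma adjusted p = 0.048) and was kept in 12 of 26 other settings (range 0.0021 to 0.19). At 60.3% GC KEAP1 is above the upper quartile of tested genes (57.0%), and after removal of the GC and length trend it differed from DMSO by -0.12 in Comb (limma adjusted p = 0.038) and by -0.10 in ELI (0.089, call lost), and from ABT by -0.19 in Comb (0.0027).

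SLC7A11, GCLC and GCLM supply glutathione: SLC7A11 is the cystine transporter subunit of system xc-, and GCLC and GCLM are the catalytic and modifier subunits of the ligase that joins glutamate to cysteine. SLC7A11 (ENSG00000151012, chromosome 4, minus strand, 138164097 to 138242349) had 4.92, 5.43 and 4.89 FPKM in Comb and 3.90, 3.22 and 3.07 in ELI. It had 0.897, 0.592 and 0.533 FPKM in ABT and 1.71, 0.863 and 0.875 in DMSO. Every Comb library was above every ELI library and every ELI library above DMSO, while ABT and DMSO overlapped. SLC7A11 rose by 1.52 in Comb against DMSO (SE 0.14, limma adjusted p = 3.5e-06) and by 1.05 in ELI against DMSO (SE 0.14, limma adjusted p = 0.00018), or 2.96 times in mean FPKM. In ABT it was 0.587 times the DMSO mean, a difference of -0.34 (SE 0.14) that did not pass (limma adjusted p = 0.22). SLC7A11 has a GC content of 35.4%, under the lower quartile of 42.1%, and with the GC and length trend removed its differences were 1.15 in Comb, 0.71 in ELI and 0.02 in ABT against DMSO, the first and second of which still passed (limma adjusted p = 2.5e-08 and 8.4e-06). On recovered reads, voom gave 1.63 in ELI against DMSO (limma adjusted p = 0.00027). An antisense gene, SLC7A11-AS1, shares 865 exon bases with it in GENCODE 29, and whether counting used strand is not given in the sources used here.

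GCLM (ENSG00000023909, chromosome 1, minus strand, 93885205 to 93909456) had 15, 14.8 and 14.1 FPKM in Comb, 9.41, 8.12 and 8.04 in ELI, 7.35, 6.28 and 5.28 in ABT and 7.94, 5.17 and 6.96 in DMSO. Comb stood well above the other groups, ELI just above DMSO, and all 3 ABT libraries within the DMSO range. GCLM rose by 1.04 in Comb against DMSO (SE 0.13, limma adjusted p = 5.4e-05), a ratio of 2.18. In ELI against DMSO it was 0.32 higher (SE 0.13), short of the threshold (limma adjusted p = 0.074). It passed in the fits blocked on replicate number, over 12 libraries (0.026) and over the 6 libraries compared (0.011). It also passed when the libraries numbered 1 were left out (0.015). GCLM has a GC content of 37.3%, and with the GC and length trend removed the ELI difference was 0.05 and the Comb difference 0.76.

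GCLC (ENSG00000001084, chromosome 6, minus strand, 53497341 to 53616970) had 3.25, 3.28 and 3.09 FPKM in Comb, 2.76, 2.65 and 2.69 in ELI, 1.98, 1.55 and 1.40 in ABT and 2.16, 2.01 and 1.63 in DMSO. The order was Comb, then ELI, then the overlapping DMSO and ABT. GCLC rose by 0.52 in Comb (SE 0.09, limma adjusted p = 0.00047) and by 0.34 in ELI (SE 0.09, limma adjusted p = 0.012) against DMSO. The ELI call was lost without DMSO replicate 3 (limma adjusted p = 0.055), and the value was 0.21 with the GC and length trend removed. The modifier subunit thus changed by a larger ratio than the catalytic one in Comb against DMSO (2.18 against 1.66) and by a smaller one in ELI (1.27 against 1.40); the differences between these ratios were not tested.

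TXNRD1 (ENSG00000198431, chromosome 12, plus strand, 104215779 to 104350305) encodes the cytosolic selenoenzyme that reduces thioredoxin with NADPH. It was among the most expressed of these genes, with 55.3, 54.0 and 55.4 FPKM in Comb, 49.2, 47.3 and 47.8 in ELI, 38.6, 35.3 and 32.5 in ABT and 41.5, 32.9 and 37.9 in DMSO. Libraries within Comb and within ELI lay close together, and both groups were clear of ABT and DMSO. TXNRD1 rose by 0.55 in Comb (SE 0.08, limma adjusted p = 0.00024) and by 0.36 in ELI (SE 0.08, limma adjusted p = 0.0065) against DMSO, and ABT differed from DMSO by -0.07 (SE 0.08, limma adjusted p = 0.57). Both calls were kept in every one of 25 and 26 other settings.

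SRXN1 (ENSG00000271303, chromosome 20, minus strand, 646615 to 653370) encodes sulfiredoxin, which restores overoxidised peroxiredoxins. It had 0, 1 and 1 reads in Comb, 0, 2 and 4 in ELI, 0, 1 and 3 in ABT and 0, 0 and 1 in DMSO, 13 reads in all. A level of 3 reads at the mean depth corresponds to 0.0615 FPKM, and SRXN1 stayed below the filter; with no filter on low genes it passed in none of the 7 comparisons (limma adjusted p from 0.25 to 0.82). In GENCODE 29, 2292 of its 2698 exon bases are shared with another protein-coding gene of the same strand, ENSG00000270299, which had 0 to 2 reads per library. How reads on shared exons were counted is not given in the sources used here, so a low level of SRXN1 and reads left uncounted cannot be told apart.

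NQO1 (ENSG00000181019, chromosome 16, minus strand, 69706996 to 69726951) encodes a flavoprotein that reduces quinones and is widely used as a readout of NRF2. It had 27.4, 25.3 and 26.6 FPKM in Comb, 13.6, 14.1 and 13.7 in ELI, 13.2, 13.8 and 15.6 in ABT and 10.5, 12.4 and 12.4 in DMSO. Comb was far above the rest, ELI and ABT overlapped, and both lay a little above DMSO without overlap. NQO1 rose by 1.10 in Comb against DMSO (SE 0.08, limma adjusted p = 4.4e-07) and by 0.89 in Comb against ELI (SE 0.08, limma adjusted p = 1.7e-05). The single drugs differed from DMSO by 0.21 in ELI (SE 0.08, limma adjusted p = 0.054, range over 26 other settings 0.022 to 0.14) and by 0.25 in ABT (SE 0.08, limma adjusted p = 0.18, range over 26 other settings 0.021 to 0.56). With the replicate number as a block the ELI difference passed over 12 libraries (limma adjusted p = 0.033) and over the 6 libraries compared (0.035). NQO1 has a GC content of 46.0%, near the median of 48.7%, and its Comb difference was 1.10 with the GC and length trend removed. An antisense gene shares 575 exon bases with it in GENCODE 29.

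CAT (ENSG00000121691, chromosome 11, plus strand, 34438925 to 34472062) encodes catalase, the peroxisomal enzyme that splits hydrogen peroxide. It had 56.8, 55.1 and 58.4 FPKM in Comb, 41.2, 43.6 and 44.0 in ELI, 48.1, 46.2 and 45.3 in ABT and 50.4, 46.5 and 45.3 in DMSO. The Comb libraries were above all others and the ELI libraries below all others. CAT rose by 0.26 in Comb against DMSO (SE 0.06, limma adjusted p = 0.0043). In ELI against DMSO it was -0.14 (SE 0.06), which did not pass (limma adjusted p = 0.091) but did with the GC and length trend removed (-0.20, limma adjusted p = 0.0038; range over 26 other settings 0.0032 to 0.35). CAT was the only one of the antioxidant genes tested whose ELI mean was below its DMSO mean.

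**Figure D2:**
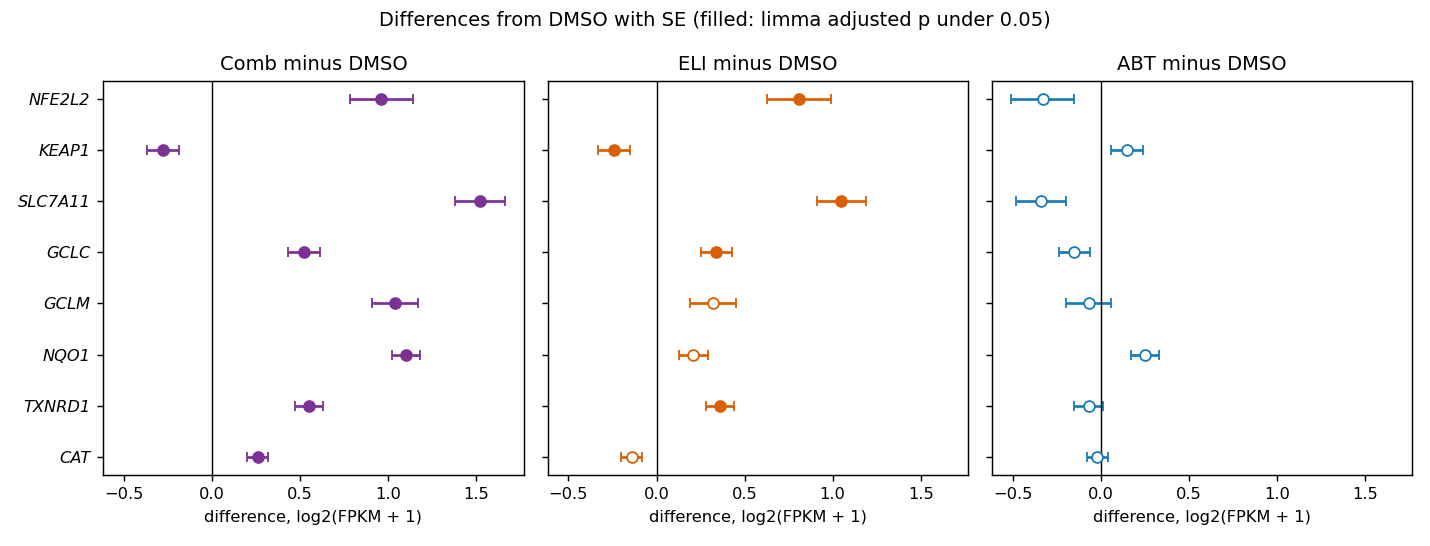
Difference of each drug group from DMSO on the log2(FPKM + 1) scale with its SE, for the 8 tested genes, filled where the limma adjusted p is under 0.05. All 8 are filled in Comb, 5 in ELI and 0 in ABT.

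Eliglustat alone raised 4 of the 8 (SLC7A11, NFE2L2, TXNRD1 and GCLC) and lowered KEAP1, where limma called 36.1% of all tested genes, 16.4% higher and 19.8% lower. NQO1, GCLM and CAT did not pass, and the median of the 8 was 0.33, against 0.01 over all tested genes. The ELI and DMSO libraries did not overlap for 7 of the 8, as for 40.5% of tested genes. With the replicate number as a block over 12 libraries, 6 were higher and 1 lower. That fit called 46.7% of all tested genes, 22.8% higher and 23.9% lower, but Comb libraries did not pair by number. The block in the 6 ELI and DMSO libraries also gave 6 higher and 1 lower, with 50.5% of genes called, 26.3% higher and 24.2% lower.

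Venetoclax alone gave 0 calls among the 8 by limma and 0 by voom, with 2 (NQO1 and SLC7A11) at an unadjusted p under 0.05, where limma called 0.151% of all tested genes. The ABT and DMSO libraries did not overlap for 1 of the 8, NQO1, as for 13.5% of tested genes. The median of the 8 was -0.07, against -0.02 over all tested genes. Same-numbered libraries of ELI, ABT and DMSO deviated together. A block fit over these 9 libraries, chosen after seeing the data, called NQO1 higher in ABT against DMSO (limma adjusted p = 0.027). It called NFE2L2 and SLC7A11 lower (0.026 and 0.020), and 23.9% of all genes tested in it. The planned block fit of the 6 ABT and DMSO libraries called NQO1 higher (limma adjusted p = 0.034) and NFE2L2 lower (0.019), and 21.7% of its genes. SLC7A11 was below the filter in those 6 libraries and was not tested there. With the GC and length trend removed NQO1 was 0.30 higher (limma adjusted p = 0.046), where 633 of 9959 genes were called.

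Adding venetoclax to eliglustat raised NQO1, GCLM and CAT, where limma called 9.55% of all tested genes, 3.03% higher and 6.52% lower. NQO1 was 0.89 higher, GCLM 0.72 (SE 0.13, limma adjusted p = 0.0041) and CAT 0.39 (SE 0.06, limma adjusted p = 0.0011), and these calls were kept in all 25 other settings. SLC7A11 was 0.47 higher (SE 0.14) and missed the threshold (limma adjusted p = 0.053, range over 24 other settings 0.00061 to 0.19), passing with the trend removed (0.00098) and without the libraries numbered 1 (0.00061). TXNRD1 was 0.19 higher (SE 0.08, limma adjusted p = 0.22) and GCLC 0.18 higher (SE 0.09, limma adjusted p = 0.25), although the Comb and ELI libraries did not overlap for either. Both passed with the GC and length trend removed (limma adjusted p = 0.0074 for TXNRD1 and 0.043 for GCLC) and in a fit of those 6 libraries alone (0.012 and 0.040). Such separation was seen for 6 of the 8 and for 40.2% of tested genes.

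Adding eliglustat to venetoclax raised 7 of the 8 and lowered KEAP1, where limma called 67.2% of all tested genes, 35.4% higher and 31.7% lower. The Comb and ABT libraries did not overlap for any of the 8, as for 76.5% of tested genes. SLC7A11 had the largest difference at 1.87 (SE 0.14, limma adjusted p = 5e-07), a ratio of 7.54 in mean FPKM, followed by NFE2L2 at 1.29 and GCLM at 1.11. With the GC and length trend removed these were 1.13, 1.08 and 0.53, GCLC was 0.44 in place of 0.68, and all passed. By voom SLC7A11 was 2.91. Between the single drugs, ELI was higher than ABT for 5 of the 8 and lower for KEAP1, where limma called 63.0% of all tested genes, 33.2% higher and 29.8% lower. The libraries did not overlap for 7 of the 8, as for 71.2% of tested genes. GCLM was 0.39 higher in ELI than in ABT (SE 0.13, limma adjusted p = 0.023), a direction that turned with the trend removed (-0.18, limma adjusted p = 0.042). The same removal left ELI minus ABT at 0.68 in place of 1.40 for SLC7A11, 0.25 in place of 0.49 for GCLC, 0.24 in place of 0.43 for TXNRD1 and -0.18 in place of -0.39 for KEAP1, all still called, and CAT became a lower call (-0.24, limma adjusted p = 0.00071), so that 4 were higher and 3 lower, and voom gave 2.33 for SLC7A11.

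The effect of eliglustat with venetoclax present was larger than its effect alone for 4 genes, by the test of the difference between these effects, (Comb minus ABT) minus (ELI minus DMSO). This interaction was called for 5.34% of all tested genes, 1.68% higher and 3.67% lower. For NQO1 eliglustat gave 0.85 with venetoclax and 0.21 without it, an excess of 0.64 (SE 0.11, limma adjusted p = 0.0053) that was kept in all 23 other settings. CAT gave 0.28 with venetoclax and -0.14 without it, an excess of 0.42 (SE 0.09, limma adjusted p = 0.013), lost without Comb replicate 3 (0.052). GCLM gave 1.11 and 0.32, an excess of 0.78 (SE 0.19, limma adjusted p = 0.031, range over 23 other settings 0.0034 to 0.089), and the call was lost when any of 8 libraries was left out. SLC7A11 gave 1.87 and 1.05, an excess of 0.81 (SE 0.20, limma adjusted p = 0.032, range over 22 other settings 0.00095 to 0.095), lost without any of 7 libraries. With the GC and length trend removed the excess was 0.62 for NQO1, 0.38 for CAT, 0.48 for GCLM and 0.42 for SLC7A11, and all 4 passed. By voom it was 1.28 for SLC7A11 (limma adjusted p = 0.044). GCLC (0.34), TXNRD1 (0.26), NFE2L2 (0.48) and KEAP1 (-0.19) did not pass (limma adjusted p = 0.16, 0.23, 0.30 and 0.37). Without the libraries numbered 1 the interaction of NFE2L2 passed (0.57, SE 0.15, limma adjusted p = 0.025). These comparisons share libraries and are not independent of each other.

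**Figure D3:**
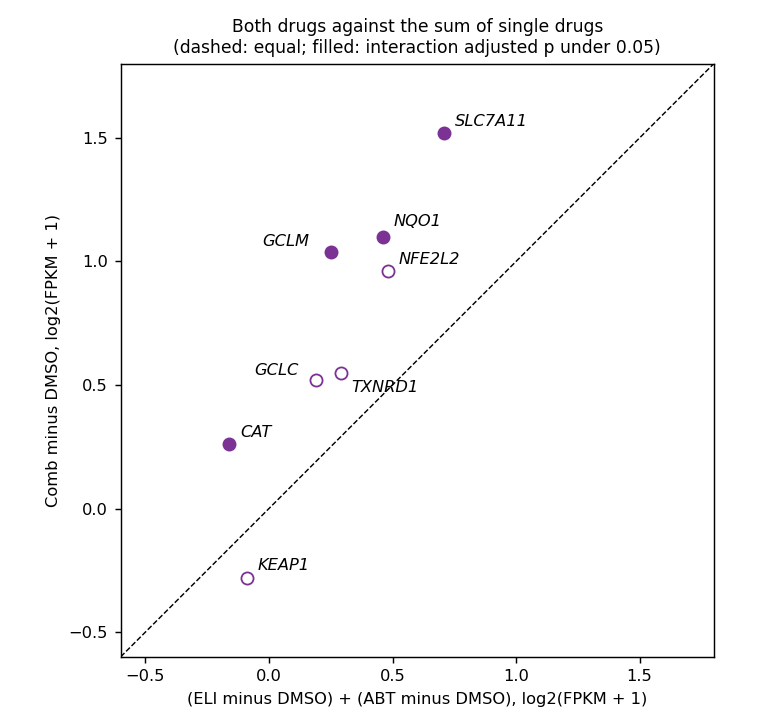
Difference of Comb from DMSO (vertical) against the sum of the ELI and ABT differences from DMSO (horizontal), log2(FPKM + 1), for the 8 tested genes. The distance above the dashed line of equality is the interaction, 0.64 for NQO1, 0.78 for GCLM, 0.81 for SLC7A11 and 0.42 for CAT (filled).

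Across the 12 libraries the 8 genes fell into patterns that differed in how far ELI alone departed from DMSO. NFE2L2, SLC7A11 and TXNRD1 were close to each other (Pearson r of log2(FPKM + 1) 0.97 to 0.98), and KEAP1 ran against NFE2L2 (r = -0.97). NQO1 was less like NFE2L2 (r = 0.53), as was CAT (r = 0.35), and NQO1 and CAT were closer to each other (r = 0.78). The points share the 4 groups and the GC trend of the libraries, so these values are a description. Among all tested genes the 3 most like NQO1 were ADCY3 (0.982), A4GALT (0.975) and CPT1A (0.959), over 12 libraries. For GCLM they were GLO1 (0.976), MYB (0.972) and SKIL (0.970). For CAT they were GCH1 (0.943), GLRX (0.899) and CDH15 (0.898), and for SLC7A11 GNPTAB (0.997), SETDB2 (0.995) and RNF139 (0.994). NFE2L2 was closest to SC5D (0.998), MCTP1 and LRRFIP1 (both 0.997), TXNRD1 to NCBP2 (0.995), PPP2R5A (0.993) and GRSF1 (0.992), GCLC to genes that included BICRAL (0.987) and RNF146 (0.984), and KEAP1 to SGTA (0.992), GTF2F1 and AP2S1 (both 0.987).

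Of 36 other listed targets of NRF2, 23 were tested, and in Comb against DMSO 16 were higher, 1 lower and 6 did not pass, with a median of 0.47 against 0.02 over all tested genes. The share higher was 69.6%, beside 25.7% of all tested genes. The list was chosen with earlier results of these data known, so this is a description and not a test. HMOX1, the heme oxygenase that degrades heme, had the largest rise, 2.50 (SE 0.11, limma adjusted p = 7.6e-09), to 15.8 ± 0.650 FPKM in Comb against 1.98 ± 0.373 in DMSO (SD, n = 3 each). FTH1, the ferritin heavy chain that stores iron, reached 215 ± 17.3 FPKM in Comb against 58.2 ± 10.6 in DMSO (SD, n = 3 each). TRIM16, a TRIM family gene with a near-identical partial copy that may share its reads, rose by 1.47, and the autophagy receptor SQSTM1 by 1.39. The lower gene was FECH, the last enzyme of heme synthesis (-0.17, limma adjusted p = 0.048), named after its value was seen; 14 of 25 other settings had 0 lower calls in this list. In ELI against DMSO 9 of the 23 were higher, 1 lower and 13 did not pass, with SQSTM1 at 1.24, FTH1 at 1.06 and TRIM16 at 0.99. The share higher there was 39.1%, beside 16.4% of all tested genes. HMOX1 had 2.14 ± 0.326 FPKM in ELI and 1.63 ± 0.259 in ABT (SD, n = 3 each), near its DMSO level, and the interaction of 2.60 (SE 0.15, limma adjusted p = 5.3e-06) passed. In Comb against ELI 7 of the 23 were higher, 0 lower and 16 did not pass. Of the 23, 14 had an unadjusted p under 0.05, and voom called 7. The share higher was 30.4%, beside 3.03% of all tested genes. Among the higher genes was SLC48A1, a heme transporter (0.76, SE 0.08, limma adjusted p = 4.4e-05). The count of 7 became 17 with the GC and length trend removed, where 1201 of 9959 genes were higher in place of 302. FTH1 has many processed copies in the genome, and its values are uncertain to that extent.

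Of 17 tested regulators of NRF2, 7 were higher, 3 lower and 7 did not pass in Comb against DMSO (median 0.14). The share called in either direction, 58.8%, was near the 51.5% of all tested genes. By direction 41.2% were higher and 17.6% lower, beside 25.7% and 25.8% of all tested genes. SQSTM1, whose protein can sequester KEAP1, was one of the higher genes, at 30.1 ± 0.962 FPKM in Comb, 27.0 ± 1.67 in ELI, 12 ± 0.783 in ABT and 10.9 ± 1.40 in DMSO (SD, n = 3 each). NFE2L3, a relative of NFE2L2, rose by 1.64 in Comb (SE 0.13, limma adjusted p = 8e-07) and by 1.38 in ELI (SE 0.13, limma adjusted p = 1.3e-05) against DMSO. The small MAF gene MAFF rose by 0.54 in ELI (SE 0.08, limma adjusted p = 0.00029). BACH1, a repressor that competes for the same elements, was also higher in Comb than in DMSO (0.82, SE 0.20, limma adjusted p = 0.0046) and is given for its role, having been chosen after its value was seen. CUL3, the ligase scaffold, differed by 0.32 in Comb (SE 0.17, limma adjusted p = 0.13) and did not pass, likewise named after its value was seen. The lower genes in Comb included BRCA1 (-1.09, SE 0.19), whose protein can bind NRF2, and, against ABT, PGAM5 (-0.96, SE 0.11), a KEAP1 partner at mitochondria.

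Glutathione enzymes outside the SLC7A11, GCLC and GCLM set had 8 higher, 9 lower and 14 not passing of 31 tested in Comb against DMSO (median -0.04). The shares, 25.8% higher and 29% lower, were near the 25.7% and 25.8% of all tested genes. GGT5, which cleaves glutathione conjugates outside the cell, was 1.88 higher (SE 0.08, limma adjusted p = 6.5e-09), and OPLAH, which returns oxoproline to glutamate, was 0.73 higher. Both passed the filter on low genes only through Comb and ELI, with 0 ABT libraries at 1 FPKM and 0 (GGT5) or 1 (OPLAH) DMSO libraries, so that a difference was a condition of their being tested. Glutathione synthetase, GSS, which completes the tripeptide after the ligase, was lower in ELI than in DMSO by a log2 difference of -0.56 (SE 0.09, limma adjusted p = 0.00075), with 5.95 ± 0.115 FPKM in Comb, 6.53 ± 0.396 in ELI, 10.2 ± 0.888 in ABT and 10.1 ± 1.30 in DMSO (SD, n = 3 each). In ELI against DMSO 6 were higher, 7 lower and 18 did not pass. The shares, 19.4% higher and 22.6% lower, were near the 16.4% and 19.8% of all tested genes. When venetoclax was added to eliglustat, the microsomal transferase MGST1 (0.56, SE 0.09), the glutaredoxin GLRX (0.46, SE 0.08) and the aminopeptidase ANPEP (0.37, SE 0.07), also one of the myelomonocytic markers, were among 5 higher and 1 lower of the 31. With venetoclax added to eliglustat 16.1% of the 31 were higher and 3.23% lower, beside 3.03% and 6.52% of all tested genes. The interaction was positive for GLRX (0.59, SE 0.12), the glyoxalase GLO1 (0.66, SE 0.16) and MGST1 (0.49, SE 0.12). They were among 4 higher and 0 lower (9 at an unadjusted p under 0.05, 3 by voom). The share higher for the interaction was 12.9%, beside 1.68% of all tested genes.

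In the thioredoxin and peroxiredoxin list, 5 were higher, 5 lower and 8 did not pass of 18 tested in Comb against DMSO (median -0.05), a share called of 55.6% that was also near that of all genes. PRDX1, the cytosolic peroxiredoxin, rose by 0.71 (SE 0.07, limma adjusted p = 1.2e-05), to 327 ± 8.03 FPKM in Comb against 200 ± 22.3 in DMSO (SD, n = 3 each). TXNIP, an inhibitor of thioredoxin, rose by 1.19 (SE 0.06, limma adjusted p = 3.2e-08). The mitochondrial reductase TXNRD2 was lower (-0.63, SE 0.09, limma adjusted p = 0.00014), while its cytosolic relative TXNRD1 was higher. In ELI against DMSO 3 were higher and 5 lower, with PRDX1 at 0.50 and TXNRD2 at -0.60. The shares were 16.7% higher and 27.8% lower, beside 16.4% and 19.8% of all tested genes. Superoxide and peroxide removal genes gave 2 higher, 2 lower and 6 not passing of 10 in Comb against DMSO. The share called was 40.0%, beside 51.5% of all tested genes. PXMP2 was among the 2 lower and reached 1 FPKM in ABT and DMSO libraries only. It was therefore tested only through the groups where it was high. PRDX1 was higher and PRDX2 lower (-0.54, SE 0.09, limma adjusted p = 0.00053).

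Both the glutathione and the thioredoxin system draw on NADPH supply. Its genes gave 5 higher, 4 lower and 8 not passing of 17 in Comb against DMSO (median 0.00). The share called, 52.9%, was near the 51.5% of all tested genes. ME3 was among the 4 lower and reached 1 FPKM in ABT and DMSO libraries only. It was therefore tested only through the groups where it was high. PGD of the pentose phosphate pathway rose by 0.92 (SE 0.10, limma adjusted p = 1.2e-05), to 170 ± 3.62 FPKM in Comb against 90.0 ± 12.1 in DMSO (SD, n = 3 each). The mitochondrial isocitrate dehydrogenase IDH2 (-1.40, SE 0.10, limma adjusted p = 4.6e-07) and the folate enzyme MTHFD1 (-1.07, SE 0.06, limma adjusted p = 5.2e-08) fell. Of 7 tested oxidant sources 2 were higher, 3 lower and 2 did not pass in Comb against DMSO. The share called was 71.4%, beside 51.5% of all tested genes. MPO was among the 3 lower and reached 1 FPKM in ABT and DMSO libraries only. It was therefore tested only through the groups where it was high. CYBB, the catalytic subunit of the phagocyte NADPH oxidase, had 0.369 ± 0.00362 FPKM in Comb against 1.48 ± 0.517 in DMSO (SD, n = 3 each). CYBB reached 1 FPKM in the 3 DMSO libraries alone, so that a lower value elsewhere was a condition of its being tested. Its cytosolic partner NCF1, which has near-identical pseudogenes, was 0.62 higher in Comb than in DMSO (SE 0.11).

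**Figure D4:**
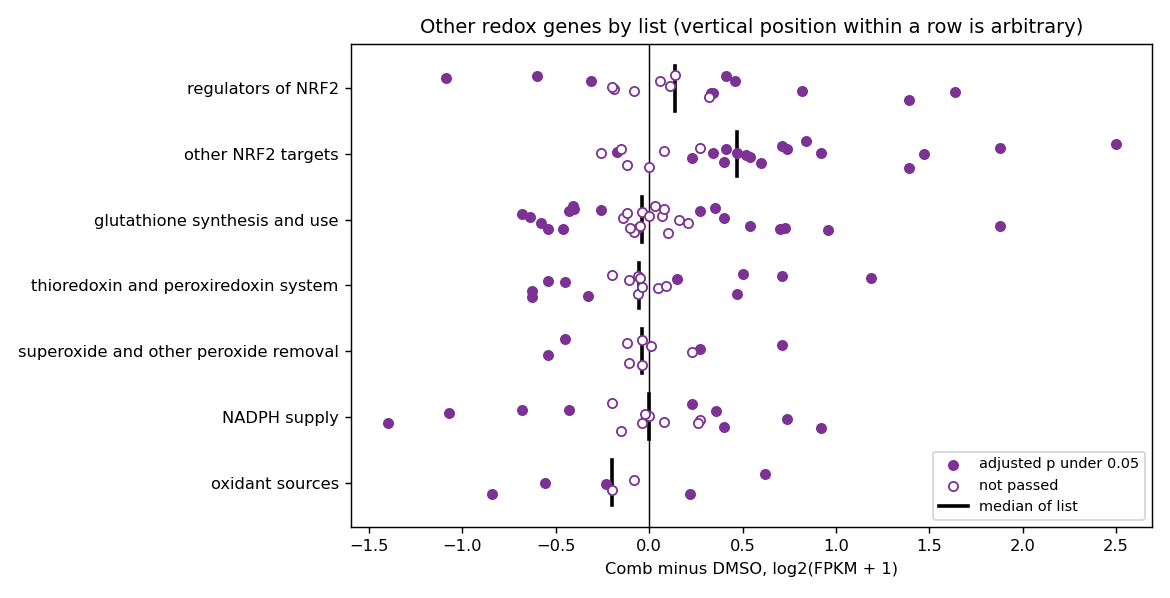
Difference of Comb from DMSO on the log2(FPKM + 1) scale for the tested genes of 7 redox lists (1 point per gene, filled where the limma adjusted p is under 0.05, bar at the list median). The other NRF2 targets have a median of 0.47 and 16 higher genes, and the glutathione and thioredoxin lists have medians of -0.04 and -0.05 with calls on both sides.

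In ABT against DMSO each of the 7 lists had 0 calls by limma and 0 by voom, where limma called 0.151% of all tested genes. Per list, 0 to 5 genes had an unadjusted p under 0.05. Over 26 other settings the count called reached 7 in the glutathione list and 5 among the other NRF2 targets. It reached 4 each for regulators, thioredoxin and NADPH supply, 2 for oxidant sources and 1 for superoxide and peroxide removal. The replicate block over the 6 ABT and DMSO libraries called 21.7% of all genes tested in it, and over 9 libraries 23.9%. The lists overlap: PRDX1, for example, stands in 3 of them.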

How the data were processed

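Total RNA of 12 MV-4-11 libraries, 3 per group, was sequenced, and the authors deposited 1 table of FPKM values with a column per library, per the file headers. The sources used here do not give the aligner, counting tool, strand setting or genome build. Symbols were found for 20011 of 20036 genes. Whole reads were recovered from the FPKM steps for 100.0% of genes above 0 (tolerance 1e-05, and 0.001 in a second pass). The authors' table was transformed as log2(FPKM + 1), filtered at 1 FPKM in 3 libraries and fitted with limma 3.58.1 in R 4.3.3 as 4 group means over 12 libraries (trended, robust variances), and the procedure was tested on simulated data. The simulated reads had no replicate or GC effect, so that test does not cover these effects. The 7 contrasts were adjusted over 9959 genes each.

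Other settings were 2 scalings, 2 filters, pseudocounts of 0.1 and 0.5, voom with trimmed-mean scaling on recovered reads, the replicate block, only the 6 libraries compared, removal of a loess trend (span 0.5, degree 1) on GC content and gene length, and leaving out libraries. GC content was that of the longest coding transcript in GENCODE 29. Replicate numbers come from the titles. Deviations of same-numbered libraries correlated at 0.24 to 0.88 across ELI, ABT and DMSO, so these were regarded as paired by number. With Comb they correlated at -0.40 to 0.16, so Comb was not. The main fit used no block, and its p-values take no account of this pairing.

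Members and gene lists were chosen with earlier results of these data known. Named were all 9 members, per list and contrast up to 3 called genes of smallest adjusted p, and per member the 3 genes of highest correlation. Some genes that these rules or the marker lists name are not reported here.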

Additional observations from a re-analysis of the deposited data

Results flagged for a closer look

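The response to eliglustat differed with and without venetoclax for 4 genes by the interaction test, in each case more positive with venetoclax. The excess was 0.64 for NQO1, 0.78 for GCLM, 0.81 for SLC7A11 and 0.42 for CAT on the log2(FPKM + 1) scale. The effect on CAT was -0.14 without venetoclax and did not pass there. No test of a single library's distance from the others was made within groups of 3.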

How the results depend on the processing

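Of the single-gene results under the other settings, 1302 kept their call, 44 lost it, 44 gained it and 2 reversed. Both reversals were of GCLM in ELI against ABT, -0.18 with the GC and length trend removed and -0.18 with the replicate block as well. The number of the 8 tested genes called in ABT against DMSO was 0. It became 2 with the replicate block in 6 libraries, where SLC7A11 was below the filter, and 3 with the block in 9 libraries. With the trend removed it was 1, and with trend and block 1. Over all tested genes the calls were 15 of 9959 in the main fit. They became 2083 of 9613, 2358 of 9868, 633 of 9959 and 1207 of 9959 in those settings, in the same order. In Comb against ELI the number of the 8 called was 3, and became 5 with the replicate block in 6 libraries. It was 6 with only those 6 libraries, with the trend removed, and with trend and block. Over all tested genes the calls were 951 of 9959, and became 1592 of 9764 with that block. They were 2227 of 9764 with only those 6 libraries, 2450 of 9959 with the trend removed and 2869 of 9959 with trend and block. For the interaction the number called was 4, and became 2 with no filter on low genes. Over all tested genes the interaction calls were 532 of 9959, and 478 of 16361 with no filter. The cause of these changes was not tested. The block changed no other count of the 8 tested genes by over 1.5 times. In the 6 Comb and DMSO libraries, whose numbers do not pair, it ended the calls of KEAP1 (limma adjusted p = 0.081) and CAT (0.095). With 12 libraries, where Comb does not pair either, it gave SLC7A11 a limma adjusted p of 0.012 in Comb against ELI. Leaving out 1 library gave 3 to 6 calls in ELI against DMSO (main 5), 0 to 0 in ABT against DMSO, 7 to 8 in Comb against DMSO (8), 8 to 8 in Comb against ABT, 3 to 4 in Comb against ELI, 5 to 6 in ELI against ABT (6) and 1 to 5 for the interaction (4). Over all genes, the calls in ABT against DMSO were 15, but 933 without DMSO replicate 2 and 2358 with the block over 9 libraries. Among the other NRF2 targets 17 were called in Comb against DMSO (14 to 20 over all settings) and 7 in Comb against ELI (4 to 18). At 5 FPKM SLC7A11 and GCLC were not tested. SRXN1, with at most 4 reads in a library, stayed below the filter, and whether depth or the counting of shared exons sets this was not tested.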
